A study of Mus musculus with 28 samples.

Results

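Among 22 naïve libraries of purified mouse sensory neurons, 4 carried almost no RNA of the Hox genes, and they are described here against the other 18. The 4 were chosen by their own values: the FPKM (sequenced fragments scaled by transcript length and by the size of the library) of all 39 listed Hox genes was summed in each library, and the split was placed at the widest gap. They were male replicates 2 and 10 and female replicates 2 and 11, 4 of the 28 libraries in the series, and are called the Hox-low libraries.

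All 22 came from naïve AdvGFP mice, which carry Tg(Avil-EGFP)QD84Gsat and so express GFP under the advillin promoter, a promoter active in most peripheral sensory neurons. There were 11 male and 11 female libraries, each made from 2 pooled mice of the same sex aged 3 to 6 months, and GFP-positive, propidium iodide-negative cells were sorted by FACS. The labels state satellite glial cells as a contaminant and call every sample DRG neurons. The study's methods say that trigeminal ganglia (n = 2) or, for the rest of the n of 11, lumbar dorsal root ganglia were dissected for this sort. They do not tie either ganglion to a library, so no ganglion was assigned to any library here. A further 3 male and 3 female libraries came from C57BL/6J mice 8 days after a partial ligation of the sciatic nerve (SNL), purified with magnetic beads from lumbar DRG, and are given for orientation only.

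Hox genes are homeobox transcription factors that lie in 4 clusters and are switched on in overlapping domains along the body axis, from the hindbrain backwards. Neurons keep much of this code into adult life, so it records where along the axis a cell arose. Dorsal root ganglia (DRG) form from trunk neural crest, within the Hox domain. The trigeminal ganglion, which serves the face, cornea, teeth and meninges, forms from cranial neural crest and placode cells in front of it. Both ganglia hold the same broad classes of sensory neuron: peptidergic and non-peptidergic nociceptors, cold- and itch-sensing cells, and large myelinated touch and stretch receptors.

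The summed Hox FPKM was 1.67 in male replicate 2, 1.72 in female replicate 2, 2.26 in male replicate 10 and 2.76 in female replicate 11. In the other 18 naïve libraries it ran from 121.9 through a median of 152.5 to 201.7, and in the 6 SNL libraries from 119.2 to 179.4. No naïve library lay between 2.76 and 121.9. These values defined the sets, so they are a description and no test was made on them.

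**Figure D1:**
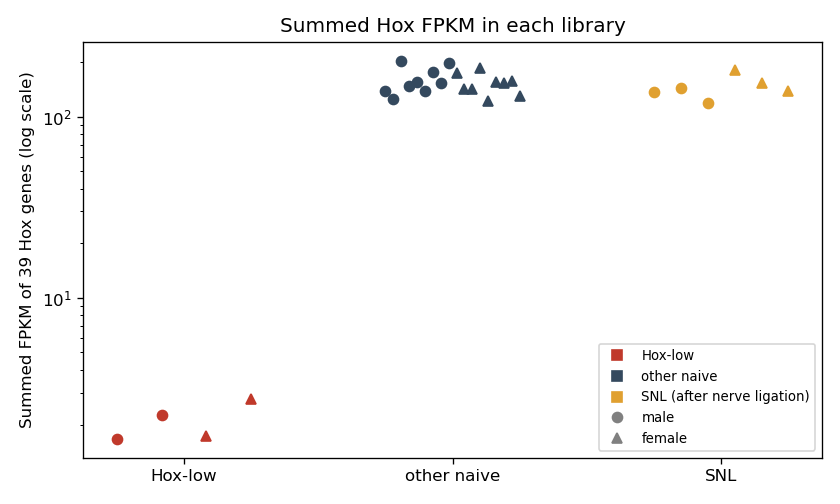
Summed FPKM of 39 Hox genes (log axis) in each library, by set and sex. The 4 Hox-low libraries lie between 1.67 and 2.76, and the 24 others between 119.2 and 201.7.

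Trunk Hox genes accounted for the gap. Hoxa7, the Hox gene with the highest median, was listed at 0.103, 0.228, 0 and 0.0685 FPKM in male replicates 2 and 10 and female replicates 2 and 11, against 24.0, 35.9 and 81.2 (lowest, median and highest) in the other 18. Hoxb5 stood at 0.0434 to 0.170 against at least 13.9, and Hoxa10 at 0.0309 to 0.0739 against at least 10.01. Hoxd8 reached 0.237 in the Hox-low libraries and at least 0.988 in the others. Hoxc8 and Hoxb8 did not fully separate the sets. Hoxc8 reached 0.0219 in the Hox-low libraries against a median of 1.09 in the others, but was listed at 0 in 1 of the 18. Hoxb8 had a median of 0 in the 18. In all, 11 of the 39 Hox genes had no overlap between the sets.

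The exception was Hoxd1, an anterior-type paralogue. It was listed at 1.12, 1.35, 0.995 and 1.61 FPKM in the Hox-low libraries, inside the range of 0.0918 to 5.70 in the others. It made up 57.7% to 66.9% of their remaining Hox FPKM. The noncoding transcript beside it, Haglr, was also inside the range, at 2.75 to 10.98 against 0.466 to 20.7.

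The libraries did not otherwise stand out by technical measures. The RNA integrity number (RIN) was 7.6 to 9.2 in the Hox-low libraries and 5.2 to 9.9 in 17 of the others (1 had none), with an exact two-sided permutation p of 0.926. Input reads were 25698515 to 32377018 against 24800048 to 40035653 (exact permutation p = 0.302), and the share of uniquely mapped reads was 83.0% to 86.8% against 78.4% to 87.6% (exact permutation p = 0.454). Genes at 1 FPKM or more numbered 11238 to 11378 against 10481 to 12244 (exact permutation p = 0.460).

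Sensory neuron identity was present in both sets. The 14 tested genes of that list summed to between 17444 and 22503 FPKM in the Hox-low libraries and between 14734 and 35574 in the others, and none passed the test. Sncg alone gave 11102 to 15160.5 FPKM of these sums in the Hox-low libraries. Pou4f1, a transcription factor that defines sensory neurons, was at 308, 279, 357 and 363 FPKM against a median of 351. Not every gene of the list was level: 9 estimates were above 0 and 5 below. Isl1 was at 152 to 199.9 FPKM against at most 135, and Stmn2 at 1172 to 1913 against 1485 to 3222. Markers of satellite glia summed to 4636 to 6075 FPKM, within the 2235 to 7692 of the other libraries.

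Outside the Hox clusters, a small set of autosomal genes differed. On log2(FPKM + 1), limma with sex as a covariate called 30 of 12942 loci, 0.232% of those tested, at a Benjamini-Hochberg adjusted p under 0.05. Of these, 9 were Hox genes, which the split had chosen, and 21 were autosomal genes outside the clusters. The latter comprised 14 that were higher in the Hox-low libraries (the 14 were 0.108% of all loci) and 7 that were lower (16 with the Hox genes, 0.124%). With quantile normalization the split was 17 higher and 5 lower. The median difference over all loci was 0.05 on the log2 scale, and 20 of the 21 differed by at least 1. Of the 14 higher genes, 2 (Calb2 and Rgs16) reached the minimum of 1 FPKM in fewer than 4 of the other libraries, so they were tested only through the set in which they are high and had to differ. Their values are given as a description.

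Because these p-values follow a split read from the same libraries, they measure how closely a gene followed the Hox split, not the effect of a treatment. All differences below are Hox-low minus the other naïve libraries on log2(FPKM + 1), which understates the change of low genes. In sorted bulk cells, fewer cells of a type and less RNA per cell cannot be told apart.

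**Figure D2:**
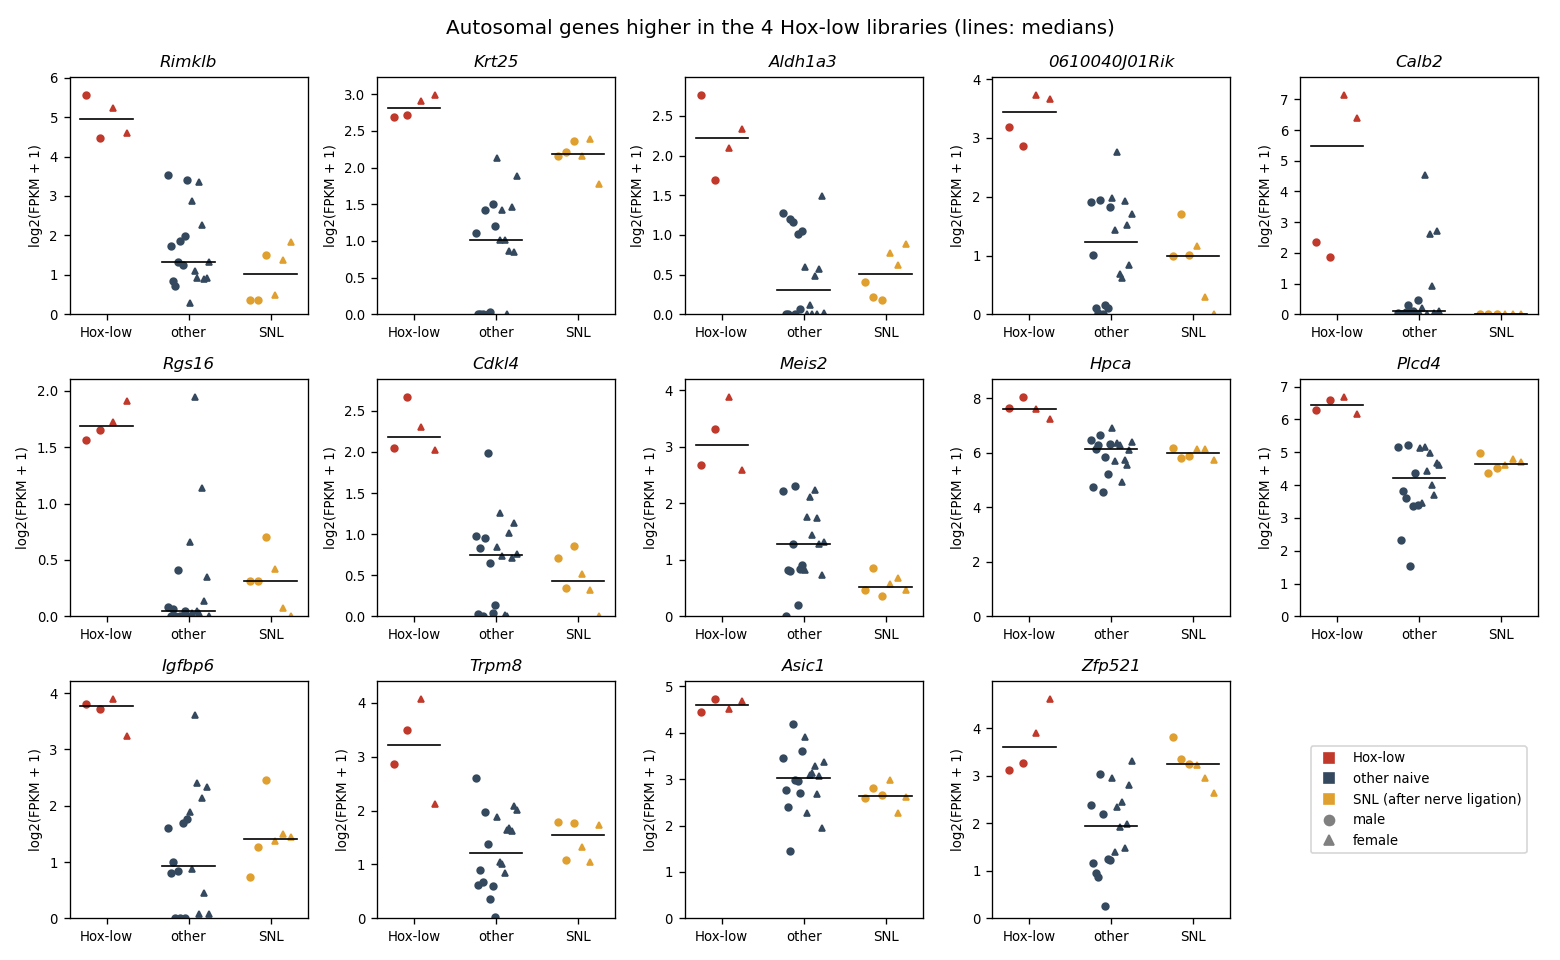
FPKM on the log2(FPKM + 1) scale of the 14 autosomal genes higher in the Hox-low libraries, 1 point per library and lines at the set medians, with the separately normalized SNL libraries beside them. For 9 of the 14, every Hox-low library is above every other naïve library.

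Patterning and transcription factors came first. Meis2 encodes a TALE homeodomain protein, a class that binds DNA together with Hox proteins, and is also expressed in head neural crest. It was listed at 5.38, 9.01, 13.8 and 5.03 FPKM in male replicates 2 and 10 and female replicates 2 and 11. The others had 0, 1.43 and 3.92 (lowest, median and highest), so the sets did not overlap. The difference was 1.85 (SE 0.35, limma adjusted p = 0.0132), and the gene lies at chromosome 2, 115863064 to 116065839 (mm10, as the files give all loci).

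Of the 10 tested TALE genes, Meis2 was the only one called, with 9 of the 10 estimates above 0 and a list median of 0.20. The most abundant, Pknox2 and Meis3, differed by 0.16 (SE 0.35) and 0.56 (SE 0.32). Factors that pattern the head and anterior brain gave no called gene among 8 tested, and 45 of the 74 listed genes were at 0 in all 4 Hox-low libraries, 27 of them in every naïve library. The list of trunk and limb factors gave none of 3. Tbx3, a T-box repressor on that list, was at 3.43 to 8.04 FPKM against a median of 1.75, without passing the test (adjusted p = 0.182).

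Zfp521, a zinc-finger transcription factor, was at 7.63, 8.61, 13.8 and 23.5 FPKM, against 0.193, 2.86 and 8.86 in the others. The lower pair, the male libraries, lay within the upper end of the other set. The difference was 1.83 (SE 0.38, limma adjusted p = 0.0294), and the call held in 9 of 20 alternative settings. Of the 39 tested transcription factors on the sensory neuron list, 33 had an estimate above 0, with a median of 0.25 against 0.05 over all loci, but none was called.

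Aldh1a3, a retinaldehyde dehydrogenase that makes retinoic acid, the morphogen that induces Hox genes in the embryo, was at 5.81, 2.24, 3.27 and 4.06 FPKM (chromosome 7, 66390892 to 66427517). In the other 18 it ran from 0 through 0.240 to 1.80, and 6 were listed at 0. The sets did not overlap, and the difference was 1.72 (SE 0.29, limma adjusted p = 0.00502). None of the other 14 tested retinoic acid genes was called; Dhrs3 and Rxrg, the most abundant, differed by 0.21 (SE 0.45) and 0.37 (SE 0.43).

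Ion channels of nociceptors and thermoreceptors followed. Trpm8, the cold and menthol receptor, was listed at 6.33, 10.2, 15.9 and 3.38 FPKM (chromosome 1, 88277661 to 88389293), and at 0.0213, 1.33 and 5.08 in the others. Female replicate 11 fell inside the upper end of that range and the other three did not. The difference was 1.87 (SE 0.37, limma adjusted p = 0.0221). Asic1, a proton-gated sodium channel, was at 20.9, 25.6, 21.9 and 24.7 FPKM (chromosome 15, 99670718 to 99701127) and at 1.73, 7.15 and 17.3 in the others. It did not overlap, and differed by 1.64 (SE 0.34, limma adjusted p = 0.0281), a call held in 10 of 20 alternative settings.

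These were the called genes among 47 tested nociceptor channels, 32 of which had an estimate above 0 (median 0.23). Trpv1, the heat and capsaicin receptor, was at 45.0 to 66.1 FPKM against a median of 102 and a range of 14.5 to 279 (adjusted p = 0.762). P2rx3, an ATP-gated channel of nociceptors, was at 89.5 to 104 against a median of 86.8.

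Kcnv1, a silent potassium channel subunit that modifies other Kv channels, was lower. Its FPKM was 2.77, 3.58, 2.31 and 3.40 (chromosome 15, 45106284 to 45114934), against 9.09, 18.5 and 52.5 in the others. The lowest other library was thus above every Hox-low library, and the medians stood at a ratio of 0.167. The difference was -2.30 (SE 0.35, limma adjusted p = 0.000846).

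**Figure D3:**
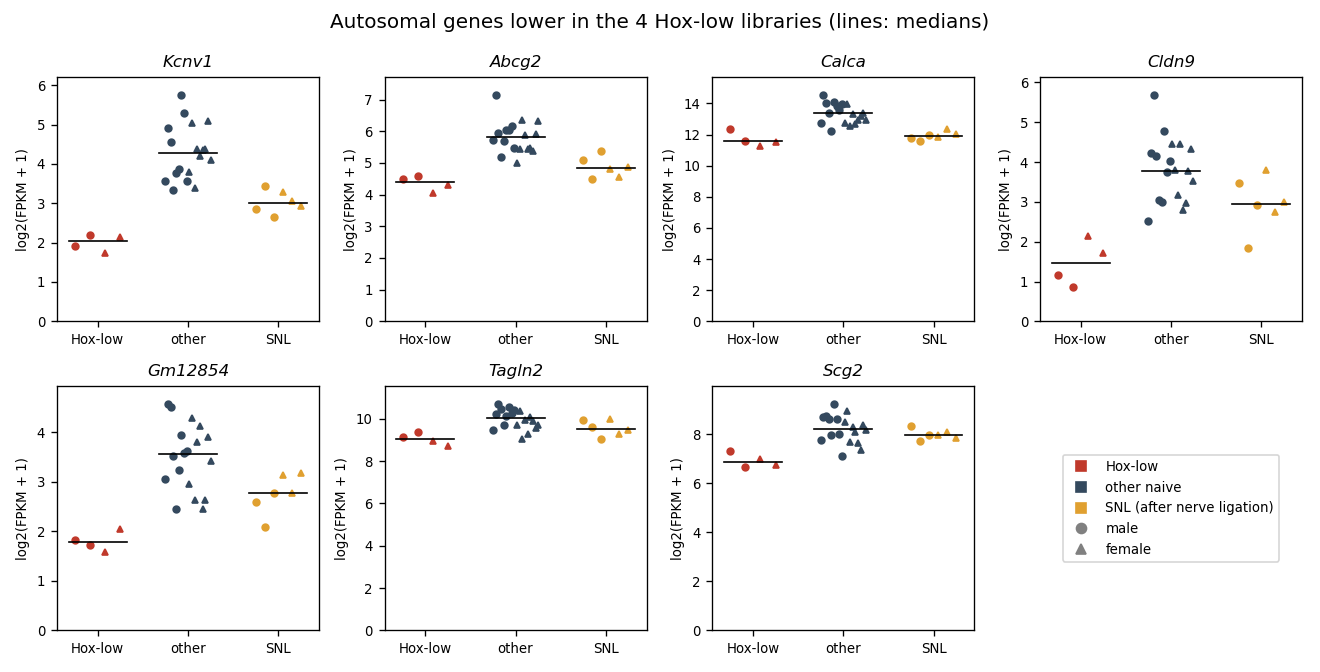
FPKM on the log2(FPKM + 1) scale of the 7 autosomal genes lower in the Hox-low libraries, 1 point per library and lines at the set medians, with the separately normalized SNL libraries beside them. For 4 of the 7, every Hox-low library is below every other naïve library.

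Calca and Scg2, whose products are stored in secretory granules, were lower. Calca encodes calcitonin gene-related peptide (CGRP), the transmitter that marks peptidergic nociceptors and dilates blood vessels. It was listed at 5271, 3059, 2412 and 2977 FPKM in the Hox-low libraries (chromosome 7, 114631480 to 114636357). The other 18 ran from 4826 through 10569 to 23610, so male replicate 2 alone reached the bottom of that range. The difference was -1.67 (SE 0.29, limma adjusted p = 0.00529), a ratio of medians of 0.286.

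Scg2, secretogranin II of dense-core secretory granules, was at 159.8, 102, 127 and 107 FPKM (chromosome 1, 79434669 to 79440120). The others had 138, 302 and 600.3, with male replicate 2 again inside their range. The difference was -1.28 (SE 0.28, limma adjusted p = 0.0480), close to the threshold, and the call held in 7 of 20 alternative settings. Of 16 tested neuropeptide genes 13 had an estimate below 0, with a median of -0.60, though Calca alone was called. The other 3 estimates were above 0: Sst, the somatostatin precursor, differed by 2.54 (SE 1.27, adjusted p = 0.700), Nppb by 1.10 and Nmu by 0.70. Tac1, the substance P precursor, was at 1600, 766, 849 and 846 FPKM against a median of 1360, a difference of -0.63 (SE 0.35, adjusted p = 0.745).

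Calcium and signalling proteins formed the next group. Hpca, the neuronal calcium sensor hippocalcin, was at 199, 264, 191 and 151 FPKM (chromosome 4, 129111570 to 129122036), all above the 22.3, 68.7 and 117 of the others. It differed by 1.73 (SE 0.33, limma adjusted p = 0.0136). Plcd4, a phospholipase C of the delta class, was at 77.1, 95.6, 102 and 70.5 FPKM (chromosome 1, 74542888 to 74567794) and at 1.87, 17.4 and 36.0 in the others. Its ranges were likewise apart, with a difference of 2.39 (SE 0.46, limma adjusted p = 0.0136).

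Calb2, the calcium buffer calretinin, was uneven within the Hox-low set. It was at 4.17 and 2.65 FPKM in male replicates 2 and 10 and at 141 and 82.5 in female replicates 2 and 11 (chromosome 8, 110142539 to 110168206). In the others the median was 0.0672 and the highest 22.4, and 4 were listed at 0, so the male pair overlapped them. The difference was 3.76 over all libraries, 2.00 among male and 5.53 among female libraries, and only 3 of the 18 others reached 1 FPKM.

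Rgs16, which speeds the shut-off of G protein signals, was at 1.97, 2.14, 2.31 and 2.77 FPKM (chromosome 1, 153740349 to 153745468), against a median of 0.0337 and a highest value of 2.86, with 6 libraries listed at 0. The highest other library was thus above all 4 of the Hox-low set. The difference was 1.44, and 2 of the 18 others reached 1 FPKM. Cdkl4, a cyclin-dependent kinase-like protein, was at 3.14, 5.37, 3.94 and 3.07 FPKM (chromosome 17, 80523550 to 80563834), just above the highest other value of 2.95. It differed by 1.59 (SE 0.29, limma adjusted p = 0.00895).

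Metabolism, transport and structure made up the rest. Rimklb encodes a ligase that joins glutamate to N-acetylaspartate to make the neuropeptide NAAG, and it had the smallest p among genes that were higher. It was at 46.4, 21.03, 36.4 and 23.3 FPKM (chromosome 6, 122447296 to 122486313) and at 0.216, 1.52 and 10.5 in the others. The lowest Hox-low library was above the highest other library, and the ratio of medians was 19.7. The difference was 3.27 (SE 0.49, limma adjusted p = 0.000846).

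Krt25, a keratin known from the hair follicle, was at 5.43, 5.58, 6.54 and 6.97 FPKM (chromosome 11, 99315516 to 99322951), against 0, 1.02 and 3.37. It differed by 1.94 (SE 0.33, limma adjusted p = 0.00502). The uncharacterized 0610040J01Rik was at 6.28 to 12.3 FPKM against at most 5.80, a difference of 2.22 (SE 0.39, limma adjusted p = 0.00529). Both had sets that did not overlap.

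Igfbp6, a secreted binding protein for insulin-like growth factor II, was at 12.9, 12.2, 13.9 and 8.38 FPKM (chromosome 15, 102144362 to 102149511). The others had 0, 0.914 and 11.3, and the difference was 2.46 (SE 0.49, limma adjusted p = 0.0202). Igfbp6 is also a fibroblast marker on the list used here, on which it was the only one of 10 tested genes called. The summed fibroblast markers were 33.6 to 77.6 FPKM in the Hox-low libraries and 24.8 to 748 in the others, none of the 13 genes was at 0 in all 4, and 8 of the 10 estimates were below 0. Dcn, the collagen-binding decorin, was at 9.50, 8.48, 22.8 and 8.02 FPKM against a median of 11.1. The part of fibroblast RNA in the Igfbp6 result was not tested.

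Abcg2, a membrane transporter that exports drugs and urate, was at 21.7, 23.3, 15.5 and 18.7 FPKM (chromosome 6, 58584523 to 58692869), below the 31.1, 54.9 and 139.6 of the others. It differed by -1.45 (SE 0.25, limma adjusted p = 0.00503). Cldn9, a tight-junction claudin, was at 1.24, 0.813, 3.44 and 2.29 FPKM (chromosome 17, 23682584 to 23684018), against 4.74, 12.7 and 50.1. Its sets were also apart, with a difference of -2.33 (SE 0.41, limma adjusted p = 0.00529).

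Tagln2, an actin-binding protein of the transgelin family, was at 556, 661, 495 and 413 FPKM (chromosome 1, 172500047 to 172507380) and at 519.5, 1037 and 1644 in the others. The upper pair, again the male libraries, overlapped. Its difference of -0.94 (SE 0.20, limma adjusted p = 0.0460) was the smallest of the 21, and the call held in 4 of 20 alternative settings. It was lost with no filter, with both other scalings and without any 1 of the 4 Hox-low libraries (adjusted p = 0.128 to 0.284). The 7th lower gene, Gm12854, carries the name of a predicted gene. It was at 1.99 to 3.12 FPKM in the Hox-low libraries against at least 4.45 in the others. It differed by -1.68 (SE 0.34, limma adjusted p = 0.0222), and the call held in 13 of 20 alternative settings.

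The sets were also compared without a model. Over all tested loci, the 4 Hox-low libraries lay above all 18 others at 33 (0.255%) and below all of them at 17 (0.131%). Outside the Hox clusters and on autosomes these were 31 and 7. Of the 21 called autosomal genes, 13 were separated, 9 higher and 4 lower. The remaining 8 overlapped through 1 or more libraries.

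The 21 genes were also described within each sex. They had been called in a fit of both sexes together, a choice that favours a shared direction. All 21 had the same direction in the male libraries alone and in the female libraries alone. Within each sex 17 of them were separated, Calb2 included. Of these, 13 were already apart over all naïve libraries, so they had to be apart within each sex. The share over all loci was not counted, so the 17 are a description only. Calca and Scg2 overlapped among male libraries, and Rgs16 and Igfbp6 overlapped among female libraries. Each sex has only 2 Hox-low libraries. The test within one sex called 1 of the 21 in females (Kcnv1) and 2 in males (Calb2 and Rgs16). Calb2 and Rgs16 entered the test only through the Hox-low set and had to differ, so their calls are a description only. An interaction of sex with the split was called at 0 of 12942 loci by limma, with 65 at an unadjusted p under 0.05.

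**Figure D4:**
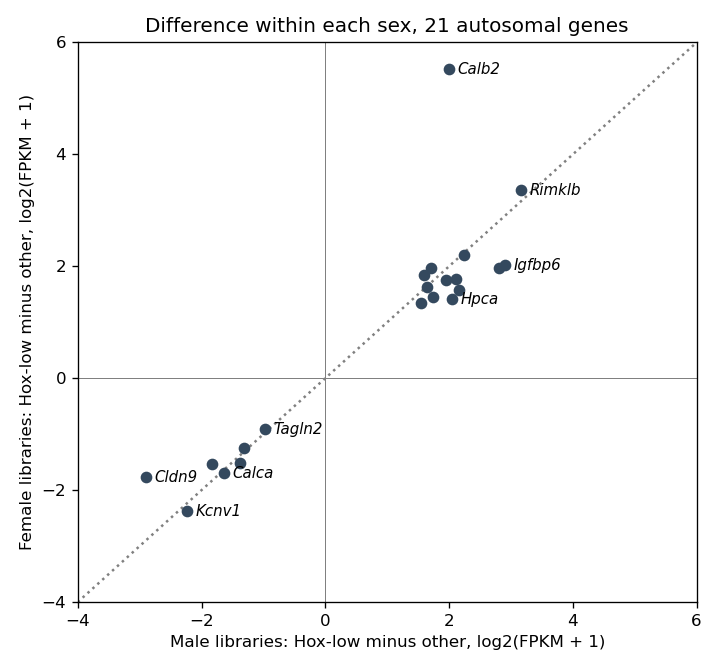
Difference between Hox-low and other naïve libraries within males (x axis) and within females (y axis), log2(FPKM + 1), for the 21 called autosomal genes, with a dotted line of equality. All 21 have the same sign in both sexes, and Calb2 lies farthest from the line (2.00 in males, 5.53 in females).

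Single libraries carried part of the result. Leaving out 1 of the 4 leaves 3 Hox-low libraries in the fit. Without male replicate 2, the 7 genes Rimklb, Kcnv1, Krt25, Abcg2, Calca, Calb2 and Cdkl4 still passed. Without male replicate 10 the 7 were Rimklb, Kcnv1, Krt25, Aldh1a3, Abcg2, 0610040J01Rik and Calb2. Without female replicate 2 they were Rimklb, Kcnv1, Krt25, Aldh1a3, 0610040J01Rik, Cldn9 and Rgs16. Without female replicate 11, 15 passed, among them Meis2 and Trpm8. Where Calb2 or Rgs16 passed, the call is a description only, since both were tested only through the Hox-low set. Rimklb, Kcnv1 and Krt25 passed in all 4 of these fits, and all 21 kept their direction in each.

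Lists of neuron subtypes held few called genes. No gene was called among 25 tested genes of non-peptidergic and itch neurons, of which 21 had an estimate above 0 (median 0.48). Mrgprd, a receptor of non-peptidergic nociceptors, was at 122 to 245 FPKM against a median of 190.4. Among 31 tested genes of large-diameter neurons, 26 had an estimate above 0 (median 0.41). The only one called was Calb2, which was tested only through the Hox-low set. The neurofilament Nefl was at 1772 to 3274 FPKM against a median of 1765. Zfp521 was the called gene of 9 on the list of C-fibre low-threshold mechanoreceptors (median 0.47), while Th, tyrosine hydroxylase of these cells, was at 42.8 to 123 FPKM against a median of 104. The median over all loci was 0.05.

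Receptor and guidance lists held no called gene. Their medians were 0.44 for 29 peptide hormone receptors, -0.09 for 10 serotonin receptors, -0.23 for 5 opioid and cannabinoid receptors and 0.12 for 27 neurotrophic and cytokine receptors, and the last 3 of these changed sign under 1 or more alternative settings. Axon guidance genes (40 tested) had a median of 0.08 and cadherins (17 tested) of 0.25.

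No activity or injury gene was called. Immediate early genes, which neurons and glia switch on within minutes of stimulation or dissociation, summed to 122 to 128 FPKM in the Hox-low libraries and to 133 to 422 in the others. Of 14 tested, 12 had an estimate below 0 (median -0.43). Fos was at 16.5 to 21.8 FPKM against a median of 49.0 and a range of 7.30 to 117. Of 22 tested nerve injury genes 17 were below 0 (median -0.53), with sums of 559 to 730.1 against 602 to 8584 FPKM. Gap43, a growth-cone protein, was at 219.8 to 343 FPKM against a median of 421. Of 77 ribosomal protein genes 67 were below 0 (median -0.16). Heat shock genes (13) and oxidative phosphorylation subunits (80) had medians of -0.04 and 0.04, and both changed sign under some alternative settings.

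**Figure D5:**
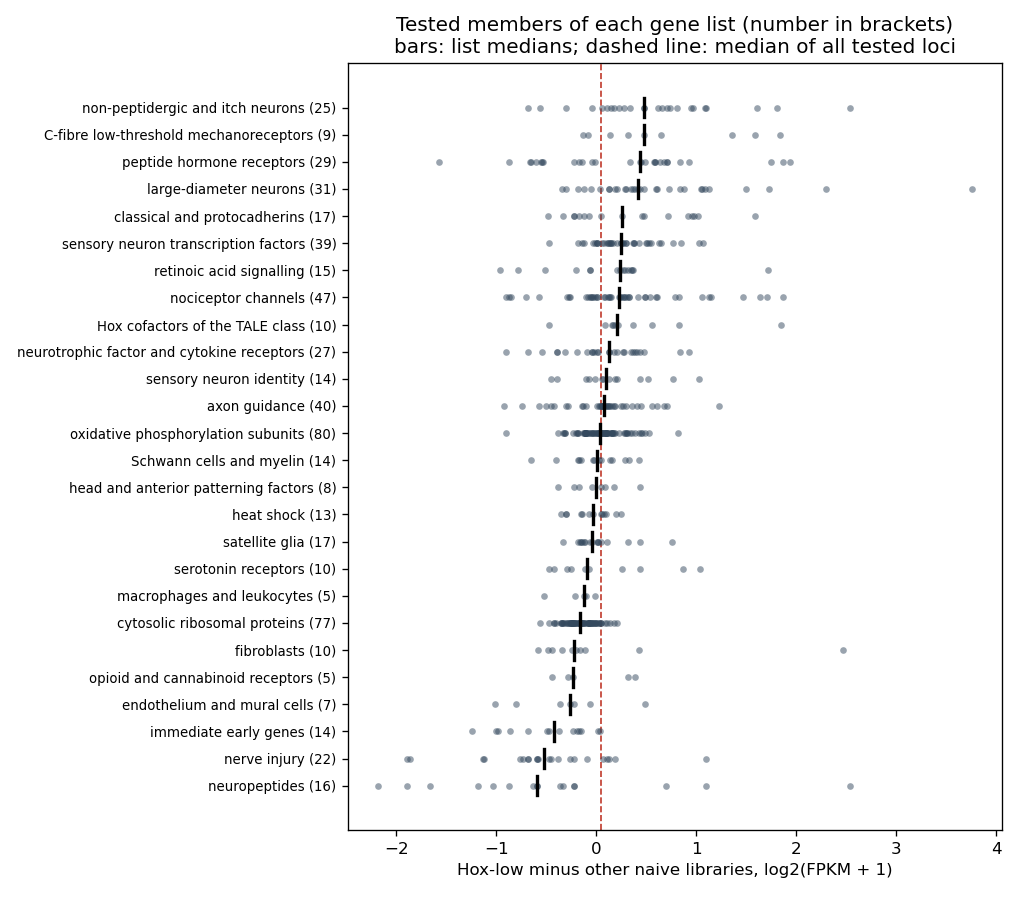
Difference of each tested gene (points) on the lists with at least 5 tested members, log2(FPKM + 1), with black bars at the list medians and a dashed line at the median of all loci, 0.05. Neuropeptides have the lowest median at -0.60 and non-peptidergic and itch neurons the highest at 0.48.

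Markers of other cells overlapped between the sets. The summed FPKM was 1435 to 2004 against 866 to 4328 for Schwann cells, 9.53 to 16.8 against 8.66 to 154 for macrophages and leukocytes, and 8.46 to 15.6 against 6.00 to 275 for endothelium and mural cells. Meninges and dura gave 7.95 to 16.1 against 0.701 to 26.0, melanocytes 11.1 to 21.7 against 7.78 to 40.2, and cartilage and bone 12.2 to 17.7 against 1.37 to 108. Central neurons summed to at most 2.14 FPKM in the Hox-low libraries with 8 of 12 genes listed at 0 in all 4, and central glia to at most 1.36 with 5 of 10 at 0. Skeletal muscle reached 6.91 against 7.15, and erythroid genes 63.9 against 196. Pituitary genes summed to 139 to 181 against 61.1 to 194 FPKM, most of it Chga, a granule protein that sensory neurons also make. No gene of these lists was called.

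The SNL libraries, all from lumbar DRG, give a side view, although strain, sorting, injury and normalization differ and no comparison was tested. For 13 of the 14 higher genes, all 6 SNL libraries were below the lowest Hox-low library. The 14 had been chosen for being high in the Hox-low set, and Calb2 and Rgs16 were tested only through it. The share over all loci was not counted, so the 13 are a description only. A value below the Hox-low libraries was not always within the range of the other naïve libraries. Krt25 was at 2.43 to 4.24 FPKM in the SNL libraries, against at most 3.37 in the other naïve libraries. Meis2 was at 0.282 to 0.808 FPKM in the SNL libraries, Rimklb at 0.285 to 2.56, and Calb2 was listed at 0 in every SNL library. By the study's methods the bead sort keeps only nociceptive C fibres of small diameter, while Calb2 is on the list of large-diameter neurons. The part of the bead sort in the 0 values was not tested. In the other naïve libraries, sorted by FACS, Calb2 had a median of 0.0672 FPKM, and 3 of the 18 reached 1 FPKM. Zfp521, at 5.18 to 13.1 FPKM, was the higher gene outside the 13. For the lower genes the picture was mixed: Kcnv1 at 5.23 to 9.899 FPKM and Scg2 at 212.9 to 321 were above every Hox-low library, but Calca at 3137 to 5278 was within the Hox-low range in all but 1 library.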

How the data were processed

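FPKM per gene in 22 naïve and 6 SNL libraries were used. STAR (alignment to mm10), SAMtools and Cufflinks were run by the authors to make the deposited FPKM, kept in separate naïve and SNL tables. Tool versions and the annotation release are not stated in the sources used here. Deposited RIN, a score, and read numbers came from the quality table. The deposited DESeq2 columns (the authors' fold changes, statistics and p-values between sexes) were not used. Of 45952 listed loci, those at 1 FPKM or more in at least 4 naïve libraries (12942) were fitted by limma (version 3.58.1 under R 4.3.3) to log2(FPKM + 1), with an intensity trend and terms for set and sex. The fit was tested on simulated data. A listed 0 can be a failed estimate: Taf6, a general transcription factor, was at 0 in 2 libraries. FPKM carries no counting error of its own. That replicates are separate pools of mice comes from the methods, and p-values measure the spread between these libraries.

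The sets, gene lists and tests were chosen with earlier results of these data known. The naming rule took called autosomal genes (at most 15 per direction, ranked by p), list members that were called and the 2 most abundant genes of each list, not all of which are printed. Sex-linked genes were tested but are not described.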

Additional observations from a re-analysis of the deposited data

How the results depend on the processing

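The counts of autosomal genes outside the Hox clusters, 14 higher and 7 lower, moved with the pseudocount, the filter, the weights and the libraries kept, and why was not tested. The higher count was 5 with a pseudocount of 0.1, 3 with 0.01, 62 with no filter and 6 with a mean FPKM of at least 5, while the lower count stayed between 5 and 7 in these. Array quality weights gave 361 and 163. Male libraries alone gave 5 and 0 (240 and 56 at an unadjusted limma p under 0.05) and female libraries alone 1 and 3. Leaving out each Hox-low library in turn gave 4 to 11 higher and 2 to 4 lower. The remaining alternatives (the study's filter, quantile and median-of-ratios scaling, no sex term, no trend, RIN or a satellite glia score as a covariate) gave 14 to 18 higher and 5 to 8 lower. The RIN fit leaves out 1 library with no RIN. Without male replicates 3, 7 and 11 (2 with a RIN under 6 and the one whose FPKM summed highest over all loci, 870872), chosen after seeing the data, 16 and 7 were called, 19 of them among the 21. No alternative reversed any of the 21 genes, and Rimklb passed in 17 and Kcnv1 in 18 of 20, the exceptions being single-sex fits and the replicate block.

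The study's methods describe sex-matched batches for the sort, but the labels name no batch. Replicate numbers did not pair the libraries: the correlation of deviations between same-numbered males and females was -0.11 to 0.08, and no library matched its own number best. This covers pairing by replicate number only. Whether batches followed the Hox split could not be checked. With the replicate block 0 higher and 0 lower genes were called by limma (1030 and 372 at an unadjusted p under 0.05). Both number 2 libraries are Hox-low, so that pair adds nothing to a blocked difference.

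The sex interaction, 0 loci in the main model, was called at 36 with no filter, at 2 with array quality weights and at 0 to 1 when a Hox-low library was left out (1 without female replicate 2). The sets did not overlap at 23 loci above and 23 below after median-of-ratios scaling. The list medians of nerve injury genes (0.17) and large-diameter neurons (-0.06) changed sign with the replicate block only.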

Other observations

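Beyond the called genes, some loci separated the sets without passing the test, and the ones named here were chosen after their values were seen. Isl1, a homeodomain factor of sensory neurons, was at 164, 199.9, 152 and 182 FPKM in male replicates 2 and 10 and female replicates 2 and 11, above the 34.9 to 135 of the other naïve libraries (difference 1.02, limma adjusted p = 0.157). Cdh9, a classical cadherin, was at 6.57 to 12.3 FPKM against at most 5.07 (1.59, limma adjusted p = 0.0673). Myo1a, a class I myosin, was at 26.5 to 53.1 FPKM against at most 23.7 (2.16, limma adjusted p = 0.0608). Lxn, a carboxypeptidase inhibitor, had 1692 to 2059 FPKM against at most 1630 (0.72, limma adjusted p = 0.0878). Epha5, a receptor for ephrin-A guidance cues, was on the low side, at 1.13 to 1.54 FPKM against at least 1.77 (-0.92, limma adjusted p = 0.180).

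At an unadjusted p under 0.05, 641 autosomal loci outside the Hox clusters were higher and 240 lower in the Hox-low libraries, of 12441 tested. The balance moved with the scaling, to 563 higher and 446 lower with quantile normalization and to 511 and 321 with median-of-ratios scaling.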
